A study of Mus musculus with 15 samples.

Results

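Neurotrophins are secreted growth factors that keep sensory and sympathetic neurons alive and set how they respond. This account covers 5 of the 24134 genes counted in primary mouse articular chondrocytes, the neurotrophin ligands *Ntf3* and *Bdnf* and the receptors *Ntrk2*, *Ntrk3* and *Ngfr*. They were taken by name from 2 count tables as factors tied to osteoarthritis pain, and the set was chosen by these roles and by the lower *Ntrk2* level seen with XAV939. Because values of XAV939 against DMSO thus entered the choice, the genes are described without a test in that contrast. All cells were passage 0 chondrocytes from the knee cartilage of neonatal ICR mice. In the siRNA table, 3 libraries came from cells given control siRNA (siCtrl) and 3 from cells given siRNAs against *Tnks* and *Tnks2* together (siTnks/2). In the drug table, 3 libraries each came from cells kept for 108 h in DMSO, in 10 μM XAV939 or in 10 μM IWR-1. XAV939 and IWR-1 are small molecules that block tankyrase, an enzyme that attaches poly(ADP-ribose) chains to other proteins, and they bind different parts of its catalytic pocket. The time after transfection was not given in the sources used here, so the siRNA and drug tables differ in more than the agent.

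Mature neurotrophins act through Trk receptor tyrosine kinases. Brain-derived neurotrophic factor (*Bdnf*) and neurotrophin-4 (*Ntf5*) are ligands of TrkB (*Ntrk2*), and neurotrophin-3 (*Ntf3*) is the ligand of TrkC (*Ntrk3*). All of them also bind the p75 neurotrophin receptor (*Ngfr*), which with sortilin forms a receptor for the uncleaved proneurotrophins. In joint disease the family is best known for sensitizing the nerve fibres around the joint. Truncated forms of TrkB and TrkC lack the kinase, and counts per gene do not separate them from the full forms.

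Library totals ran from 26857070 to 36615194 counts, with a median of 31046712, and all 10 chondrocyte markers examined had at least 10 counts in every library. Both targeted genes were lower after knockdown, *Tnks* by -1.81 ± 0.22 on the log2 scale (SE, adjusted p = 0.00569, edgeR) and *Tnks2* by -1.10 ± 0.11 (adjusted p = 0.00384). Levels are given as CPM, read counts scaled to a fixed total of mapped reads, with TMM scaling within each table, and each group has n = 3. The tables were scaled separately, so levels set side by side across them are descriptions. A gene is called changed at a Benjamini-Hochberg adjusted p under 0.05 over all genes tested in edgeR's quasi-likelihood test. In the siRNA table, siTnks/2 replicate 2 stood apart in some endothelial markers, with 89 counts of *Pecam1* and 64 of *Cdh5*, against at most 7 and 3 in each other library. It also had the most reads of *Emcn* (10 counts) and *Cldn5* (9 counts). *Kdr* and *Tek* did not set it apart, with 3 to 19 and 4 to 13 counts in siTnks/2 libraries against 4 to 20 and 10 to 23 in siCtrl libraries. Without siTnks/2 replicate 2 the knockdown log2 fold changes were 1.81 for *Ntrk2* (adjusted p = 0.000891, edgeR), -0.85 for *Bdnf* (0.00195), 1.32 for *Ngfr* (0.0156) and -0.76 for *Ntrk3* (0.104). The calls of these 4 genes were thus those of the full table. The part of the endothelial markers in the knockdown results was not otherwise tested. Over all genes, 18.0% of 13672 were called after knockdown (10.4% higher, 7.61% lower). Of 13873 genes, 17.4% were called with XAV939 (7.57% higher, 9.85% lower) and 36.4% with IWR-1 (16.2% higher, 20.2% lower).

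The promoters of 4 of the 5 genes are listed in RefSeq on GRCm38.p6 as windows from 250 bases before to 50 bases after a start site, 7 for *Bdnf*, 2 for *Ntf3* and 1 each for *Ntrk2* and *Ngfr*. They are shown because these genes differed in direction in the same cells. Capitals mark matches to the 5 motifs searched on both strands, the CRE core CGTCA, the AP-1 site TGANTCA, the TCF/LEF core CTTTGA, the SOX/TCF core ACAAAG and the TEAD core GGAATG. The *Ntrk2* and *Ngfr* windows held none of these letters. Both of these windows are printed, together with the *Ntf3* window that held a TCF/LEF core and the *Bdnf* window that held a CRE core and a SOX/TCF core.
Ntrk2 promoter, chr13:58806319-58806618, plus strand: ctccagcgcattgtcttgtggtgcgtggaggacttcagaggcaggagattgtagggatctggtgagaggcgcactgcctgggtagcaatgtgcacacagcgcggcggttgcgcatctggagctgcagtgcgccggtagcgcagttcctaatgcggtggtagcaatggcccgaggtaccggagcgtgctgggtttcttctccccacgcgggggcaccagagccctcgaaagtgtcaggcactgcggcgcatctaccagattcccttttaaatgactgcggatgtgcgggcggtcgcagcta
Ngfr promoter, chr11:95587649-95587948, minus strand: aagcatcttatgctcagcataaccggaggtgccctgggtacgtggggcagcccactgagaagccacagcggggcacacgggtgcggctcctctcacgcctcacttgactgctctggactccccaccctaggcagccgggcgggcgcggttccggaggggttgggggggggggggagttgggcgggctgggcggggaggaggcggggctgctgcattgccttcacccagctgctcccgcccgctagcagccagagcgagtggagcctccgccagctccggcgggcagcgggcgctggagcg
Ntf3 promoter, chr6:126164911-126165210, minus strand: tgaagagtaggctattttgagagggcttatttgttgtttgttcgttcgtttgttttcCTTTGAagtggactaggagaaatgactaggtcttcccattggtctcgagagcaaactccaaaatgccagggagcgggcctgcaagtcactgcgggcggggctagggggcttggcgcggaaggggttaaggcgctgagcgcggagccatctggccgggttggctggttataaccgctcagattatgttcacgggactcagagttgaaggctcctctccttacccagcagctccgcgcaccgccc
Bdnf promoter, chr2:109692186-109692485, plus strand: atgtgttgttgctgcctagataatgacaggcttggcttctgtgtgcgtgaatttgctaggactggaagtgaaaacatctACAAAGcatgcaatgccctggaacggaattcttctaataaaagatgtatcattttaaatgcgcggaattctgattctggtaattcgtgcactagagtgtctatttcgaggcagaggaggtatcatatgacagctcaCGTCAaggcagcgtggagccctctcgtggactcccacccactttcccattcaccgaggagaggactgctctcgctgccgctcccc
Of 32851 promoter windows, the CRE core was found in 20.8%, the AP-1 site in 7.81%, the TCF/LEF core in 16% (5257 windows), the SOX/TCF core in 18.7% and the TEAD core in 14.7%. Among the 7 *Bdnf* windows, 1 held the CRE core, 1 the AP-1 site, 1 the SOX/TCF core and 2 the TEAD core. The second *Ntf3* window held none of the 5 motifs. These matches describe the letters in the windows and do not show binding.

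Of the ligands, *Ntf3* was close to the limit of detection in untreated cells and had more reads with either drug. *Ntf3* (chromosome 6, 126101412 to 126166772, mm10) had 1, 1 and 3 counts in the DMSO libraries, or 0.0305, 0.0291 and 0.0943 CPM. With XAV939 it had 18, 8 and 14 counts (0.485, 0.300 and 0.432 CPM), and with IWR-1 it had 13, 20 and 26 (0.378, 0.642 and 0.754 CPM). Every library of either drug lay above every DMSO library. Because the DMSO counts were this low, the gene entered the test of the drug table only through the treated libraries. Against DMSO the pooled count was 12-fold that of the control with IWR-1 (59 against 5 counts, 95% counting interval 4.87 to 38.4) and 8.56-fold with XAV939 (40 against 5 counts, interval 3.38 to 27.8). The fitted log2 fold changes, 2.55 ± 0.52 with IWR-1 and 2.08 ± 0.56 with XAV939, are smaller than the pooled ratios because the fit adds a prior count of 2, and they are given as a description. Intervals of pooled counts cover counting error only and leave out variation between replicates. Replicates differed by more than sampling noise, with a mean chi-square per gene of 8.05 to 111 for pairs within a group. The intervals are therefore a description and not a test. Reads carry no molecular identifiers, so even the counting error may be larger than these intervals show.

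Under the knockdown the *Ntf3* counts of the groups overlapped. The siCtrl libraries had 1, 7 and 7 counts and the siTnks/2 libraries 6, 6 and 4, a pooled ratio of 1.05 (16 against 15 counts, interval 0.488 to 2.29). With so few reads the gene was filtered out of the siRNA table and was not tested there. Within replicate numbers the siTnks/2 level was 6.69, 0.827 and 0.609 times the siCtrl level.

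*Bdnf* was the more abundant of the ligands and was lower under every form of tankyrase inhibition. *Bdnf* (chromosome 2, 109674700 to 109727043) read 20.6, 21.7 and 22.0 CPM in siCtrl and 11.2, 6.35 and 12.5 CPM in siTnks/2. The siTnks/2 libraries all lay below the siCtrl libraries, the lowest being replicate 2. The fitted level after knockdown was 0.47 of the control, a log2 fold change of -1.09 ± 0.23 (adjusted p = 0.0222, edgeR), against a background of 7.61% of genes called lower. The call was lost when any 1 of siCtrl replicates 1, 2 or 3 or siTnks/2 replicate 1 was left out, with log2 fold changes of -1.12, -1.08, -1.07 and -1.18 and adjusted p of 0.0699, 0.069, 0.0735 and 0.0628 in that order.

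In the drug table *Bdnf* started from a lower level. It read 4.12, 3.70 and 4.24 CPM in DMSO. XAV939 cells had 1.86, 1.28 and 2.28 CPM, and IWR-1 cells had 2.01, 1.64 and 2.73 CPM. All 6 drug libraries lay below the DMSO libraries, and the ranges of the drugs overlapped each other. The log2 fold change was -0.90 ± 0.24 with IWR-1 (adjusted p = 0.0112, edgeR), and the call was lost without IWR-1 replicate 2 (-0.75, adjusted p = 0.054). XAV939 gave -1.12 ± 0.24. Both contrasts use the same 3 DMSO libraries.

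Markers of other cells moved beside *Bdnf*. The summed level of 10 neuron markers ran from 37.4 to 51.2 CPM in siCtrl and from 5.7 to 12.9 CPM in siTnks/2. *Uchl1* (24.4 to 26.1 against 3.1 to 4.99 CPM) and *Stmn2* (8.28 to 18.9 against 0.606 to 2.97 CPM) made up most of it, while *Elavl4* and *Snap25* stayed under 4 counts in each of these libraries. Unlike *Uchl1* and *Stmn2*, *Rbfox3* had more reads after knockdown, with 0 to 3 counts in siCtrl libraries and 12 to 14 in siTnks/2 libraries. Of the 6 neuron markers tested, 1 was called higher and 2 lower after knockdown (50% called, beside 18.0% of all genes). In the drug table the summed level ran from 5.5 to 10.1 CPM in DMSO, 7.28 to 9.05 CPM with XAV939 and 8.49 to 10 CPM with IWR-1. Of 4 neuron markers tested there, 3 were called higher and 0 lower with each drug. That share of 75% stood beside 17.4% of all genes with XAV939 and 36.4% with IWR-1. The part of the neuron markers in the lower *Bdnf* level was not tested. In bulk libraries, fewer cells of a type and less RNA per cell cannot be told apart.

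**Figure D1:**
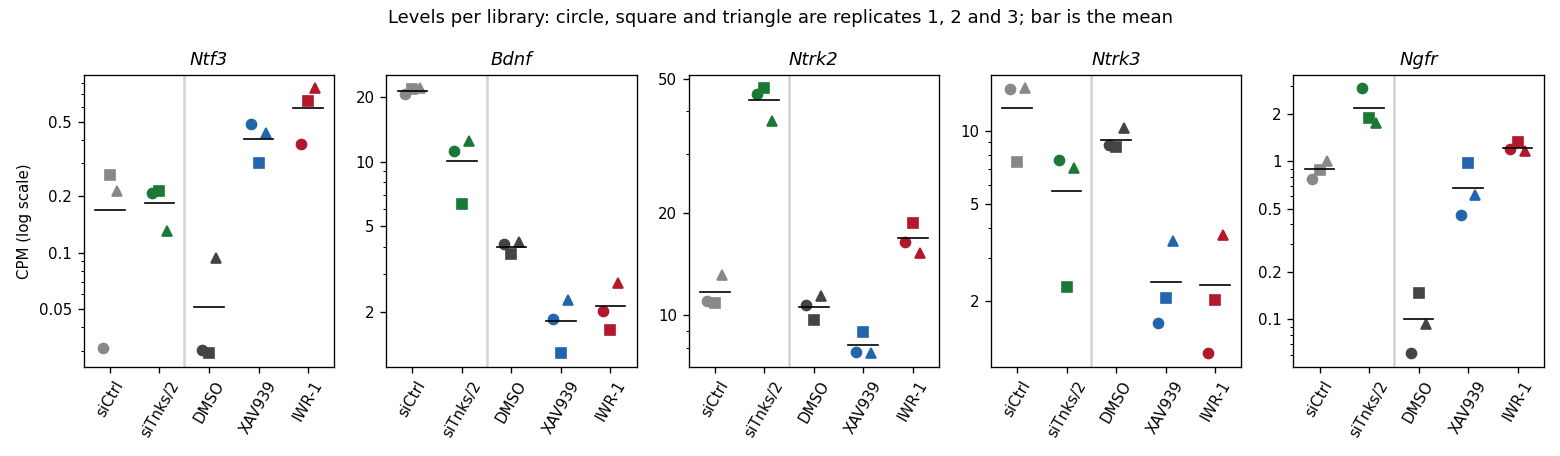
Levels of the 5 genes in every library, in CPM on a log axis of its own for each gene, with siRNA libraries left and drug libraries right of the grey line. Symbols are the replicates and bars the group means. Mean *Bdnf* and *Ntrk3* are lower and mean *Ngfr* higher in each treated group than in its control, and *Ntrk2* stands highest in siTnks/2 at a mean of 43.1 CPM and lowest with XAV939 at 8.15 CPM.

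Among the receptors, *Ntrk2* rose with the knockdown, and stood below DMSO with XAV939 and above it with IWR-1. *Ntrk2* (chromosome 13, 58806472 to 59133970), which encodes TrkB, read 11.0, 10.9 and 13.2 CPM in siCtrl and 45.1, 46.9 and 37.4 CPM in siTnks/2. The lowest siTnks/2 library was therefore well above the highest siCtrl library. The fitted rise was 3.67-fold, a log2 fold change of 1.87 ± 0.12 (adjusted p = 0.00224, edgeR), where 10.4% of genes were called higher. It was kept under all 12 alternatives, with values between 1.81 and 1.97.

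DMSO cells had 10.7, 9.66 and 11.4 CPM of *Ntrk2*, close to the siCtrl level. XAV939 cells had 7.81, 8.93 and 7.72 CPM, all below DMSO, and IWR-1 cells had 16.5, 18.8 and 15.3 CPM, all above it. The XAV939 values chose the gene set, and the IWR-1 contrast shares its DMSO libraries, so both are given as a description. The log2 difference from DMSO was -0.38 ± 0.13 with XAV939 and 0.67 ± 0.13 with IWR-1. Within replicate numbers, XAV939 cells held 0.728, 0.924 and 0.674 of the DMSO level, and IWR-1 cells 1.54, 1.94 and 1.34 of it. In order of mean level, siTnks/2 (43.1 ± 5.05 CPM, SD) stood first, followed by IWR-1 (16.9 ± 1.77), siCtrl (11.7 ± 1.32), DMSO (10.6 ± 0.895) and XAV939 (8.15 ± 0.676). The siCtrl and DMSO ranges overlapped.

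*Ntrk3*, which encodes TrkC, was lower in every treated group, most clearly in the drug table. *Ntrk3* (chromosome 7, 78179986 to 78581034) read 8.78, 8.56 and 10.3 CPM in DMSO. Cells in XAV939 had 1.62, 2.06 and 3.52 CPM, and cells in IWR-1 had 1.22, 2.02 and 3.74 CPM. None of the 6 drug libraries reached the DMSO range. With IWR-1 the level was 0.258 of the control, a log2 fold change of -1.96 ± 0.37 (adjusted p = 0.00155, edgeR; 20.2% of genes were called lower). XAV939 gave -1.92 ± 0.37 against the same DMSO libraries.

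In the siRNA table the libraries of replicate 2 stood apart for *Ntrk3*. The siCtrl libraries read 14.8, 7.47 and 15 CPM and the siTnks/2 libraries 7.63, 2.28 and 7.02 CPM, so the groups overlapped. Without regard to replicate number the log2 fold change was -1.13 ± 0.46 and was not called (adjusted p = 0.123, edgeR). Within each replicate number, however, the siTnks/2 level was 0.516, 0.306 and 0.468 of the siCtrl level. Libraries that share a replicate number deviated together, less clearly in the drug table than in the siRNA table. With the number as a block the log2 fold change was -1.19 ± 0.15 (adjusted p = 0.00556, edgeR). DESeq2 without the block also called the gene (-1.14, adjusted p = 0.0383).

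Some fibroblast markers moved beside *Ntrk3* and *Bdnf* in the drug table. The summed level of 8 fibroblast and tendon markers, nearly all of it *Col1a1*, ran from 5822 to 6752 CPM in DMSO, from 2520 to 3386 CPM with XAV939 and from 2010 to 3323 CPM with IWR-1. Of these 8 markers, 4 were called lower with XAV939, and with IWR-1 4 were lower and 1 higher. The shares called were 50% and 62.5%, beside 17.4% and 36.4% of all genes. Mean *Thbs4* ran the other way, at 16, 40.8 and 41.7 CPM in DMSO, XAV939 and IWR-1. So did *Pi16* (0.224, 0.598 and 0.931 CPM) and *Tnmd* (1.14, 1.57 and 1.65 CPM). Mean *Scx*, *Dpt*, *Pdgfra* and *Ly6a* were lower with either drug. In the siRNA table the fibroblast sum ran from 2096 to 3995 CPM in siCtrl and from 1020 to 3240 CPM in siTnks/2. None of the 7 fibroblast markers tested there was called, beside 18.0% of all genes. The summed level of the 10 chondrocyte markers, most of it *Col2a1*, was higher in the treated groups of both tables. It ran from 26523 to 36133 CPM in DMSO, from 36905 to 56570 CPM with XAV939 and from 88354 to 113351 CPM with IWR-1. Of these 10 markers, 4 were called higher with XAV939 and 10 with IWR-1, and 0 were called lower with either. The shares called were 40% and 100%, beside 17.4% and 36.4% of all genes. In the siRNA table the chondrocyte sum ran from 82122 to 111348 CPM in siCtrl and from 119370 to 197984 CPM in siTnks/2. After knockdown 5 of the 10 markers were called higher and 0 lower (50%, beside 18.0% of all genes). The part of these fibroblast and chondrocyte markers in the lower *Ntrk3* and *Bdnf* levels was not tested.

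*Ngfr*, which encodes the p75 receptor, rose with the knockdown and had more reads with either drug than with DMSO. *Ngfr* (chromosome 11, 95568818 to 95587698) had 25, 24 and 33 counts in siCtrl (0.778, 0.887 and 1.01 CPM) and 84, 53 and 54 counts in siTnks/2 (2.91, 1.89 and 1.76 CPM). The groups did not overlap. The log2 fold change was 1.23 ± 0.26 (adjusted p = 0.0201, edgeR; 10.4% of genes were called higher). Leaving out siCtrl replicate 1, 2 or 3 or siTnks/2 replicate 1 ended the call, with log2 fold changes of 1.15, 1.23, 1.33 and 0.98 and adjusted p of 0.0821, 0.0667, 0.0623 and 0.0567 in that order.

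In DMSO *Ngfr* had 2, 5 and 3 counts (0.061, 0.146 and 0.0943 CPM), against 17, 26 and 20 with XAV939 (0.458, 0.976 and 0.617 CPM) and 41, 41 and 40 with IWR-1 (1.19, 1.32 and 1.16 CPM). The 3 drug-table groups did not overlap one another, and like *Ntf3* the gene passed the filter there only through the treated libraries. The pooled count ratio was 12.4 with IWR-1 (122 against 10 counts, interval 6.53 to 26.6) and 6.74 with XAV939 (63 against 10, interval 3.43 to 14.7). The fitted log2 fold changes, 2.99 ± 0.40 with IWR-1 and 2.18 ± 0.43 with XAV939, are given as a description. Schwann cells of peripheral nerve also make this receptor. Across the 10 Schwann cell markers the summed level ran from 12.3 to 15.2 CPM in DMSO, from 12.4 to 14.2 CPM with XAV939 and from 16.6 to 19 CPM with IWR-1, and from 20.2 to 26.8 CPM in siCtrl and 21.9 to 26.8 CPM in siTnks/2. Of the defining markers, *Foxd3* was at 0 in all libraries and *Sox10* had at most 1 count in any. *Cdh19*, another gene of this list, moved in the direction of *Ngfr*, with a mean of 5.55 CPM in siCtrl and 11 CPM in siTnks/2, and of 0.846, 2.65 and 5.24 CPM in DMSO, XAV939 and IWR-1. Of 6 Schwann cell markers tested, 1 was called higher and 1 lower after knockdown and with XAV939, and 2 were higher and 1 lower with IWR-1. The shares called were 33.3%, 33.3% and 50%, beside 18.0%, 17.4% and 36.4% of all genes. The part of the Schwann cell markers in the *Ngfr* level was not tested.

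**Figure D2:**
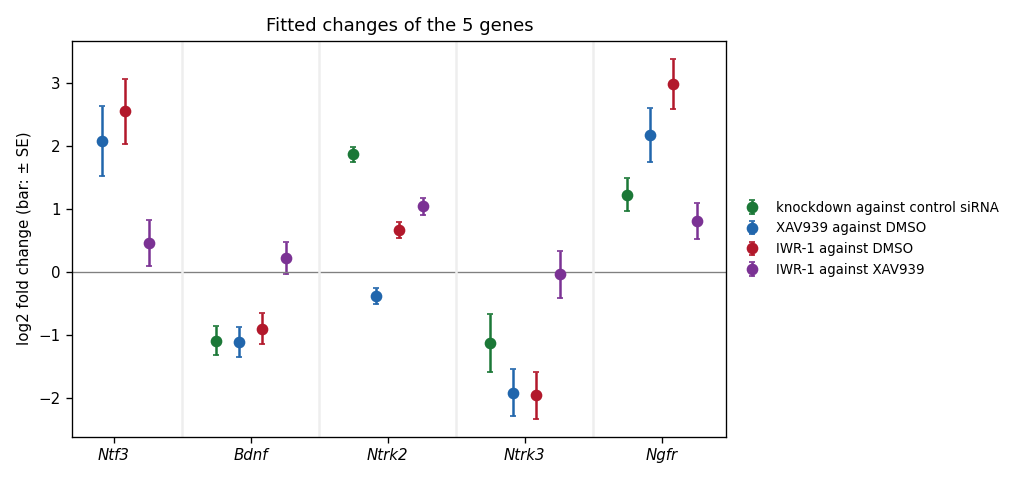
Fitted log2 fold changes of the 5 genes with bars of ± 1 SE, by comparison. *Ntf3* has no knockdown point because it was too low to test. In the contrasts with controls, *Ntrk2* is the gene whose points lie on both sides of 0, at 1.87, -0.38 and 0.67. Points of IWR-1 against XAV939 are drawn too, where *Bdnf* lies at 0.22.

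The ratio of *Ntrk2* to *Ntrk3* reads stood higher in every treated group than in its control, a summary chosen after the values had been seen. Within a library this ratio depends neither on scaling nor, for its change between groups, on transcript length, and it was 0.742, 1.46 and 0.882 in siCtrl and 5.91, 20.6 and 5.33 in siTnks/2. The groups did not overlap, and the mean difference was 3.14 on the log2 scale. No test is given, since the ratio was chosen with its values in view. In DMSO the ratio was 1.22, 1.13 and 1.11. It was 4.83, 4.33 and 2.19 with XAV939 and 13.5, 9.29 and 4.09 with IWR-1, all above DMSO. The replicate 2 value of 20.6 in siTnks/2 came from the library with the lowest *Ntrk3* level of that table.

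**Figure D3:**
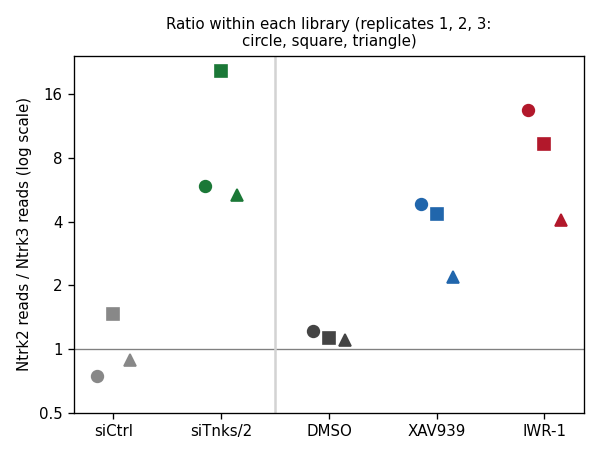
Ratio of *Ntrk2* to *Ntrk3* read counts in each library on a log axis, with a line at 1 for equal read counts. Control libraries lie between 0.742 and 1.46, and treated libraries between 2.19 and 20.6.

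At the same dose and time, IWR-1 and XAV939 differed in the level of *Ntrk2*. This gene and *Ntf3* are described only, and no difference was called for *Bdnf*, *Ntrk3* or *Ngfr*. IWR-1 cells held 2.12, 2.10 and 1.98 times the *Ntrk2* level of XAV939 cells of the same replicate number, a log2 difference of 1.04 ± 0.13. Over all 13873 genes, 17.6% were called between the compounds, and the p-values of the genes tested are adjusted over all of them. *Ngfr* was higher with IWR-1 by 0.81 ± 0.29 (95% interval 0.24 to 1.39, adjusted p = 0.0672, edgeR), which became a call with the replicate block (0.83, adjusted p = 0.0187) and without XAV939 replicate 2 (1.11, adjusted p = 0.0202). *Bdnf* differed by 0.22 (interval -0.27 to 0.71, adjusted p = 0.575, edgeR). For *Ntf3* the fitted difference was 0.46 ± 0.36, given as a description, since the gene passed the filter only through the treated libraries. *Ntrk3* differed by -0.04 (-0.78 to 0.71, adjusted p = 0.96), an interval that still allows a difference in either direction.

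The IWR-1 and knockdown effects were then compared in 1 model over the 15 libraries, in which 24.4% of 14271 genes were called different. For *Ngfr* the IWR-1 effect was larger by 1.72 ± 0.51 (adjusted p = 0.00428, edgeR), measured from DMSO libraries with 2 to 5 counts. For *Ntf3*, which entered this model only through the drug-treated libraries, the fitted difference was 2.40 ± 0.89, given as a description. *Bdnf* effects differed by 0.19 ± 0.34 (interval -0.48 to 0.85, adjusted p = 0.759), and by -0.06 without siTnks/2 replicate 2. The *Ntrk3* effects differed by -0.83 ± 0.61 (adjusted p = 0.343), and by -0.85 ± 0.29 with the replicate block (adjusted p = 0.032). For *Ntrk2*, given as a description, the IWR-1 effect was smaller by a log2 difference of -1.22 ± 0.18. The control levels also differed between the tables. Mean *Ngfr* was 0.892 CPM in siCtrl and 0.100 CPM in DMSO, and mean *Bdnf* 21.4 and 4.02 CPM, so agent, time and starting level cannot be told apart in these differences.

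Per kilobase of the longest coding transcript, *Bdnf* was the most abundant of the 5 in siCtrl, at 5.02 ± 0.182 CPM per kb (SD), ahead of *Ntrk2* at 1.34 ± 0.151, *Ntrk3* at 0.631 ± 0.218, *Ngfr* at 0.259 ± 0.0338 and *Ntf3* at 0.113 ± 0.0813. In DMSO *Ntrk2* led at 1.21 ± 0.102 CPM per kb, followed by *Bdnf* at 0.942 ± 0.0671. With the length of all annotated exons in place of the longest transcript, *Bdnf* led in DMSO at 0.646 against 0.550 for *Ntrk2*, so the order of this pair depends on the transcript model.

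*Sort1*, which encodes sortilin, the partner of p75, rose with the knockdown (log2 fold change 1.06 ± 0.09, adjusted p = 0.00298, edgeR) and with IWR-1 (0.64 ± 0.19, adjusted p = 0.0205), and gave 0.13 ± 0.19 with XAV939 (adjusted p = 0.659). *Ntf5* fell with IWR-1 (-1.08 ± 0.29, adjusted p = 0.00961) and gave -0.83 ± 0.28 with XAV939 (adjusted p = 0.0564). *Sorcs2*, a sortilin relative, fell with XAV939 (-0.75 ± 0.18, adjusted p = 0.0168) and IWR-1 (-0.64 ± 0.18, adjusted p = 0.0172). *Sorcs3* had 0 to 11 counts in DMSO libraries and 31 to 33 with IWR-1 (fitted value 2.21 ± 0.58).

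**Figure D4:**
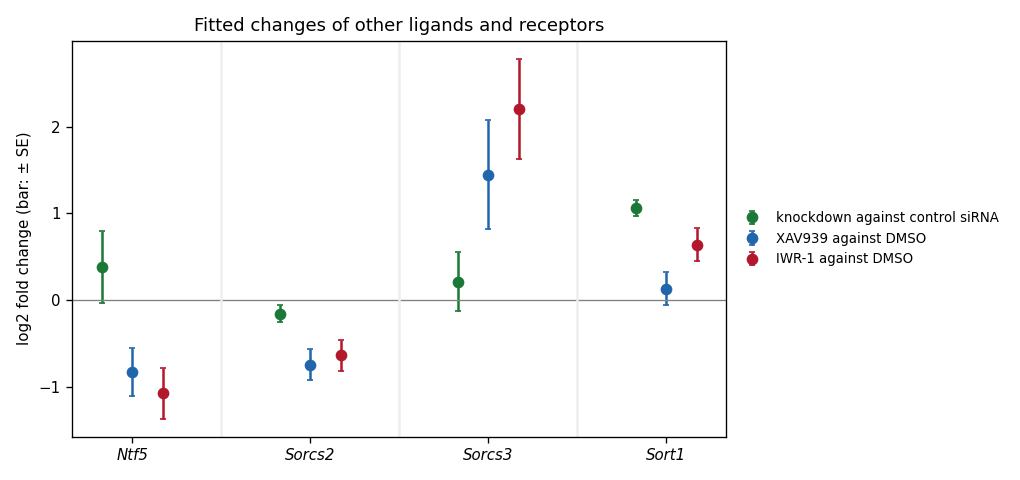
Fitted log2 fold changes, with bars of ± 1 SE, of *Ntf5*, *Sorcs2*, *Sorcs3* and *Sort1* in the 3 contrasts with controls. *Sort1* lies above 0 at 1.06 with knockdown and 0.64 with IWR-1, and *Sorcs2* lies below 0 at -0.75 with XAV939 and -0.64 with IWR-1.

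The wider pathway was described with 7 lists holding 96 genes beside the 5. After knockdown 12 of 82 tested were called higher and 10 lower, 26.8% in all beside 18.0% of all genes, with a median log2 fold change of 0.02 (0 over all genes). With XAV939 5 of 81 were higher and 19 lower (29.6% beside 17.4%, median -0.21 beside 0.02), and with IWR-1 9 were higher and 35 lower (54.3% beside 36.4%, median -0.27 beside 0.01). The replicate block gave 23 higher after knockdown and 12 higher and 30 lower with XAV939. Leaving out 1 library lowered the counts as far as 7 higher and 4 lower after knockdown (without siCtrl replicate 1 or 3), with 5 lower without siCtrl replicate 2 or siTnks/2 replicate 1. With XAV939 it lowered them as far as 3 higher and 12 lower (without DMSO or XAV939 replicate 1), with 3 higher without XAV939 replicate 2 or any 1 IWR-1 library, and with IWR-1 to 5 higher (without DMSO replicate 1 or IWR-1 replicate 2). The drug contrasts share their DMSO libraries. Some of these genes also stand in gene lists that the study itself drew up. Among them are *Sort1*, *Pcsk6* and *Gab1* in its cartilage-signature list, and *Nedd4l* in its list of genes higher in damaged osteoarthritic cartilage. The latter list also holds *Ntf3*.

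Genes of proneurotrophin processing were called in all 3 contrasts. *Pcsk6*, a proprotein convertase, rose with knockdown (1.54 ± 0.18, adjusted p = 0.00532, edgeR) and IWR-1 (1.73 ± 0.21, adjusted p = 0.000117). *Plat*, the tissue plasminogen activator, fell with XAV939 (-1.03 ± 0.21, adjusted p = 0.00779). Its mean level was 37.3 ± 4.09 CPM (SD) in DMSO, 18.3 ± 4.79 with XAV939 and lower still with IWR-1, at 9.81 ± 2.68. *Mmp3* fell with IWR-1 (-3.13 ± 0.21, adjusted p = 3.11e-06), while *Mmp9* rose with knockdown (2.70 ± 0.66, adjusted p = 0.0269) and XAV939 (0.86 ± 0.16, adjusted p = 0.00509). The siTnks/2 libraries were uneven, with 32 to 143 counts of *Mmp9* against 10 to 12 in siCtrl. With IWR-1 the *Mmp9* level was lower than in DMSO, at a mean of 2.96 ± 0.469 CPM (SD) against 13.4 ± 2.48. Of the 8 genes tested in this list, knockdown gave 3 higher and 0 lower, XAV939 1 and 2, and IWR-1 1 and 5 (37.5%, 37.5% and 75% called, beside 18.0%, 17.4% and 36.4% of all genes).

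The Trk and p75 effectors were called at shares near those of all genes, 20% and 20% after knockdown beside 18.0%, 21.1% and 21.4% with XAV939 beside 17.4%, and 42.1% and 42.9% with IWR-1 beside 36.4%. Of 20 Trk adaptors tested after knockdown, 2 were higher (*Shc4*, 0.75 ± 0.14, and *Plcg1*, 0.32 ± 0.07) and 2 lower (*Crkl*, -0.53 ± 0.10, and *Rapgef1*, -0.32 ± 0.08). Of 19 tested with the drugs, XAV939 gave 0 higher and 4 lower and IWR-1 1 higher (*Gab1*, 0.47 ± 0.13) and 7 lower, led by *Sh2b2* (-1.29 ± 0.16) and *Gab2* (-1.12 ± 0.24). Among p75 adaptors, 1 of 15 was higher after knockdown, *Lingo1* (1.30 ± 0.15), a coreceptor of p75 for myelin inhibitors, and 2 were lower, *Ripk2* (-0.66 ± 0.11) and *Arhgdia* (-0.45 ± 0.07). With IWR-1, 3 of 14 were higher, including *Magel2* (3.53 ± 0.41) and *Rtn4r* (1.32 ± 0.22), and 3 lower. XAV939 gave 2 higher, the same *Magel2* (1.77 ± 0.41) and *Rtn4r* (1.13 ± 0.22), and 1 lower, *Traf6* (-0.70 ± 0.14).

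Of 10 genes tested that restrain Trk signalling or pair with Trk receptors, knockdown gave 1 higher (*Ptprs*, 0.37 ± 0.06) and 4 lower, XAV939 0 and 4, and IWR-1 0 and 6. Over all genes, 7.61%, 9.85% and 20.2% were called lower in these contrasts. *Lrig1*, a leucine-rich repeat protein that restrains several receptor kinases, was lower in all 3 contrasts, by -0.77 ± 0.11 after knockdown, -0.88 ± 0.14 with XAV939 and -2.19 ± 0.15 with IWR-1. *Slitrk5*, a coreceptor of TrkB, was lower after knockdown (-1.80 ± 0.15) and with IWR-1 (-1.51 ± 0.50).

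Of the other neurotrophic factors, 18.2%, 25% and 41.7% were called with knockdown, XAV939 and IWR-1, and of the pain mediators 33.3%, 36.4% and 63.6%, beside 18.0%, 17.4% and 36.4% of all genes. *Gdnf*, the ligand of the Ret receptor complex, fell with XAV939 (-0.99 ± 0.24) and IWR-1 (-2.62 ± 0.26), and *Cdnf* rose in all 3 contrasts (0.76 ± 0.13, 0.49 ± 0.15 and 1.17 ± 0.15 for knockdown, XAV939 and IWR-1). *Ncam1* was the other of 2 genes higher after knockdown among 11 tested in this list, with 0 lower. Of 12 tested with the drugs, XAV939 gave 1 higher and 2 lower, *Cntfr* included (-1.78 ± 0.35), and IWR-1 1 higher and 4 lower, *Gfra2* included (-1.69 ± 0.42). Among joint pain mediators, 2 of 12 were higher after knockdown, *Adra1a* (2.05 ± 0.35) and *Ramp1* (1.67 ± 0.19), a subunit of the receptor for calcitonin gene-related peptide. The axon guidance ligands *Slit2* (-2.02 ± 0.22) and *Sema3a* (-1.71 ± 0.36) were lower. Of 11 tested with XAV939, 1 was higher (*P2rx4*, 0.34 ± 0.09) and 3 lower, among them *Sema3a* (-1.90 ± 0.32). With IWR-1, 1 was higher and 6 lower, led by the bradykinin receptor *Bdkrb1* (-2.87 ± 0.23) and the prostaglandin receptor *Ptger4* (-2.12 ± 0.23).

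**Figure D5:**
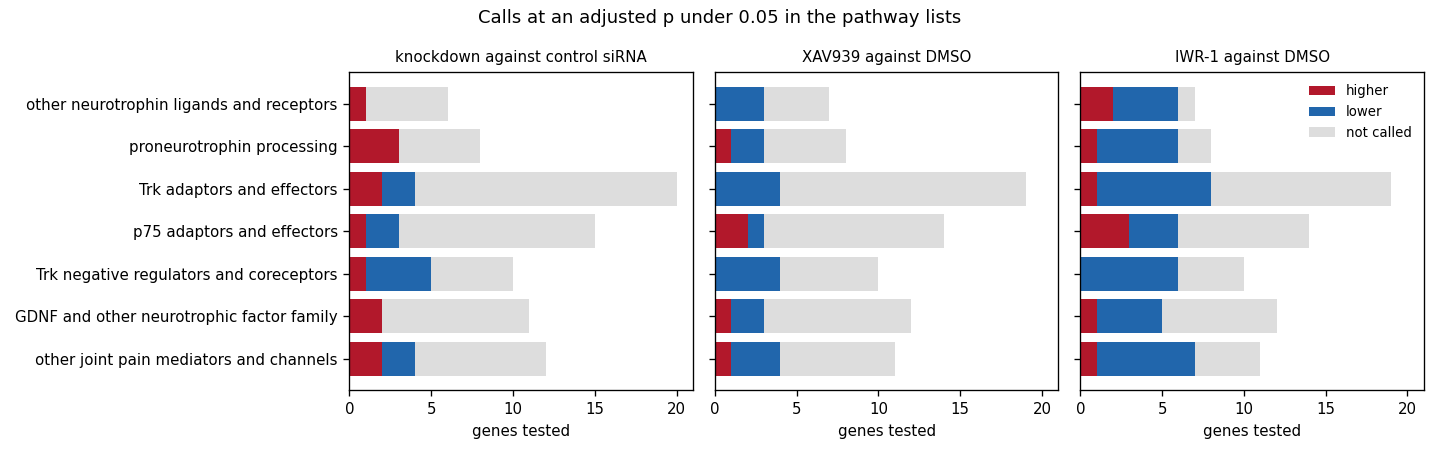
Number of genes tested in each of 7 lists (bar length) and how many were called higher or lower at an adjusted p under 0.05, in the 3 contrasts. In the list of other ligands and receptors, knockdown gave 1 higher and 0 lower of 6, XAV939 0 and 3 of 7, and IWR-1 2 and 4 of 7. Their shares called were 16.7%, 42.9% and 85.7%, beside 18.0%, 17.4% and 36.4% of all genes.

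Across the 15 libraries, with each table's own mean removed, the 5 genes fell into a pair of opposite patterns, given as a description. Pearson's r of log2 CPM was 0.88 between *Bdnf* and *Ntrk3* and 0.82 between *Ntf3* and *Ngfr*, and -0.77 between *Ngfr* and either *Bdnf* or *Ntrk3*. *Ntrk2* stood between them, at 0.49 with *Ngfr* and -0.55 with *Bdnf*. These points share libraries, scaling and treatment groups. Among 14271 genes, the closest to *Bdnf* were *Otud1* (0.981), *Fam107b* (0.975) and *Trim59* (0.972), and the most opposite *Shfl* (-0.973), *Eepd1* (-0.958) and *Idua* (-0.949). *Ntrk2* was followed most closely by *Gid4* (0.96), *Syt9* (0.96) and *Serinc5* (0.957) and ran opposite to *Ccdc65* (-0.945), *Cklf* (-0.935) and *Psrc1* (-0.933). For *Ntrk3* the closest were *Nipal1* (0.977), *Il1rl1* (0.973) and the collagen gene *Col3a1* (0.96), with *Casp4* (-0.949), *Ggnbp1* (-0.949) and *Ddrgk1* (-0.946) at the other end. For *Ngfr* they were *Mtss2* (0.98), *Extl1* (0.976) and *Epha8* (0.975), against *Msln* (-0.973), *Plekha2* (-0.97) and *Tafa2* (-0.965). *Ntf3* lay nearest to *Ints6l* (0.928), *Arl11* (0.908) and *Tbc1d22b* (0.891) and opposite to *Rab33a* (-0.938), *Hoga1* (-0.926) and *Ccdc184* (-0.914).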

How the data were processed

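Total RNA of 15 cultures was sequenced as stranded mRNA libraries. Per the labels and the study's methods, the deposited values are raw read counts per gene, which the authors made with Trimmomatic 0.32 (trimming), TopHat2 2.0.13 (alignment, mm10) and HTSeq 0.6.1p1 (counting). The annotation and strand setting of the counting are not given in the sources used here, so reads of overlapping or antisense genes may be shared or lost. Replicates are said to be biological. Counts of replicates differed by more than sampling noise (mean chi-square per gene 8.05 to 111 for pairs within a group).

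Of 24134 gene IDs, 24051 matched a symbol. Each table was filtered with filterByExpr and fitted with edgeR 4.0.16 in R 4.3.3 (TMM, quasi-likelihood F test, prior count 2, Benjamini-Hochberg over all genes tested), 1 model per table, and 1 over 15 libraries for the difference between effects. Printed SE are the unshrunk log2 fold change over the root of F, and 95% intervals use the normal quantile. DESeq2 1.42.0, other scaling and filters, the replicate number as a block, fitting each pair of groups alone and leaving out each library were alternatives. Libraries of the same replicate number, taken from the labels, deviated together from their group means (r of 0.424 to 0.519 in 3 siRNA pairs, 0.143 to 0.553 in 9 drug pairs). Pairs of unlike number ran from -0.409 to 0.097 in the siRNA table and from -0.489 to 0.318 in the drug table. The ranges thus overlapped in the drug table, where DMSO replicate 2 had r of 0.318 with XAV939 replicate 1 and 0.143 with XAV939 replicate 2. Blocked values are given where they change a call.

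Coordinates come from the RefSeq annotation of this build, transcript lengths from GENCODE vM21 and promoters from RefSeq (GRCm38.p6). The exon-length alternative and the *Ntrk2* to *Ntrk3* ratio were chosen after seeing the data. Named genes are the 5 genes, *Ntf5*, *Sort1*, *Sorcs2*, *Tnks* and *Tnks2*, up to 2 genes each way per list and contrast with the largest called change and no overlap between groups, and the 3 genes most and least like each of the 5 genes. Marker genes named in the text were chosen after their values were seen. Some genes that this rule covers are not reported here. The genes and lists were chosen with earlier results of these data known. Steps were tested on simulated data.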

Additional observations from a re-analysis of the deposited data

Results flagged for a closer look

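A difference between the IWR-1 and knockdown effects was called for *Ngfr*, and a fitted difference is described for *Ntf3*. For *Ngfr* the IWR-1 effect was larger by 1.72 on the log2 scale (adjusted p = 0.00428, edgeR, 15 libraries), within 1.54 to 2.28 and adjusted p of 0.00235 to 0.0215 under the alternatives. The fitted difference for *Ntf3* was 2.40, but this gene entered the model only through the drug-treated libraries, so it is given as a description without a test. The DMSO libraries held 2 to 5 counts of *Ngfr* and 1 to 3 of *Ntf3*, against 24 to 33 and 1 to 7 in siCtrl, and the part of these control levels in the differences was not tested.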

How the results depend on the processing

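Scaling (RLE, upper-quartile) and filters changed no call and no direction of the 5 genes where they gave a value. With at least 10 counts in every library required, *Ntf3* was left out in both tables and *Ngfr* in the drug table and in the model over 15 libraries. Under DESeq2 the XAV939 values were 3 for *Ntf3* and 2.73 for *Ngfr*, and the knockdown value of *Ntrk3* was -1.14 and called. The replicate block gave calls for *Ntrk3* after knockdown (-1.19), *Ngfr* between the drugs (0.83) and *Ntrk3* between IWR-1 and knockdown effects (-0.85), moved the list counts to 23 higher after knockdown and to 12 higher and 30 lower with XAV939, and changed no other call. A fit of only XAV939 and DMSO gave 3 listed genes higher and left out *Ntf3*.

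With each library left out in turn, the knockdown values ran from -1.28 to -0.85 for *Bdnf*, 1.81 to 1.97 for *Ntrk2*, -1.40 to -0.76 for *Ntrk3* and 0.98 to 1.37 for *Ngfr*. IWR-1 values of *Bdnf* ran from -1.13 to -0.75. Between the drugs, *Ngfr* ran from 0.59 to 1.11, and *Ntrk3* from -0.55 to 0.35, changing sign without XAV939 replicate 3 (0.35), IWR-1 replicate 1 (0.27) or IWR-1 replicate 2 (0.05). The difference between IWR-1 and knockdown effects on *Bdnf* ran from -0.06 to 0.37, changing sign without siTnks/2 replicate 2 (-0.06) or IWR-1 replicate 3 (-0.03). List counts ran from 7 to 16 higher and 4 to 9 lower after knockdown, 3 to 6 and 12 to 23 with XAV939, and 5 to 11 and 27 to 38 with IWR-1. They moved by over 1.5 times without siCtrl replicate 1 or 3 (7 higher, 4 lower), siCtrl replicate 2 (5 lower) or siTnks/2 replicate 1 (5 lower) after knockdown, without DMSO replicate 1 (3 higher, 12 lower), XAV939 replicate 1 (3, 12), XAV939 replicate 2 or any 1 IWR-1 library (3 higher) with XAV939, and without DMSO replicate 1 or IWR-1 replicate 2 (5 higher) with IWR-1. The cause of these changes was not tested. Depth limits *Ntf3* throughout and *Ngfr* in DMSO.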
